A study of Homo sapiens with 54 samples.

Results

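The genes described here are 8 genes of cholesterol synthesis and its control, HMGCS1, IDI1, FDFT1, SQLE, LSS, DHCR7, SREBF2 and INSIG1, chosen by symbol from the 25435 genes of the expression table. All 8 were present and all 8 passed the filter on low values. They were followed in 3 pairs of high-grade serous ovarian cancer cell lines, each pair from a single patient: resistant PEA2 with sensitive PEA1, resistant PEO4 with sensitive PEO1, and resistant PEO23 with sensitive PEO14. Cells of each line were taken untreated or following 8 h or 24 h with 80 µM of the DNA-crosslinking agent carboplatin, with 3 replicates per group and 54 libraries in all. All cultures grew in serum-containing RPMI medium, which supplies lipoprotein cholesterol. Each line stands for a single tumour sample, so replicates measure the spread within a line and not between patients.

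Cells make cholesterol from acetyl-CoA through mevalonate, isoprenoids, squalene and sterols, or take it up from serum lipoproteins. SREBF2 encodes SREBP-2, a membrane-bound transcription factor that is cut free when sterols are scarce and then raises the transcription of synthesis and uptake genes, its own gene among them. INSIG1 encodes the protein that holds the SREBP complex in the endoplasmic reticulum when sterols are plentiful, and is itself an SREBP target.

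Promoters show the DNA that this control is known to read, and 6 of the 8 members were matched to RefSeq windows of 300 bases (build GRCh38.p14) around the gene start. Those of SREBF2 and LSS, the members that most often fell under carboplatin, and of IDI1, a member that rose, are given 5′ to 3′ on the gene's strand, with capitals marking the classical sterol regulatory element, SRE-1, or an NF-Y box (CCAAT, here on the reverse strand as ATTGG). They lie at chr22:41832855-41833154 on the plus strand for SREBF2, chr21:46228725-46229024 on the minus strand for LSS and chr10:1056655-1056954 on the minus strand for IDI1.
SREBF2: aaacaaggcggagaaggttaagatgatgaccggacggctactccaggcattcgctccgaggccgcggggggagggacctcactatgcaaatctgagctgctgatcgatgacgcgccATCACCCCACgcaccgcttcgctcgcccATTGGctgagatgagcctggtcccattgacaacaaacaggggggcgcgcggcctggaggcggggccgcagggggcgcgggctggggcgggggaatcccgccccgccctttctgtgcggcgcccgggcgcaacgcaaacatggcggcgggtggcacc
LSS: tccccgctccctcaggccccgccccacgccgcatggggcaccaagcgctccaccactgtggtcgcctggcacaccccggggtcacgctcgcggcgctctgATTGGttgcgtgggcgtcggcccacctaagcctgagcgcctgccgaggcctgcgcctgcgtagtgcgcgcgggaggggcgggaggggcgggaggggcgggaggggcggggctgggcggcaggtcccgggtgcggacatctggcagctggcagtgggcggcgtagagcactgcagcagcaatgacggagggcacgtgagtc
IDI1: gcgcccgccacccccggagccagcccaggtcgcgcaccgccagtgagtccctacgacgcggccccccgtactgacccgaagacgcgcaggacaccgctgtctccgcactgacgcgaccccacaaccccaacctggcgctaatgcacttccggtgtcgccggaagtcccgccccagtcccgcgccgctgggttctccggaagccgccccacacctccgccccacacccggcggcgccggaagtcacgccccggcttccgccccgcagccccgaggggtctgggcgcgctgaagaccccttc

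The SRE-1 element, spelled by the first capitals of the SREBF2 sequence, stood 125 bases before the start in SREBF2 and in no other matched member, and 0.0456% of 35116 promoters of the same length held it on either strand. Its looser core, TCACNCCAC, which overlaps it, was held by 1.13% of promoters. The NF-Y box was found in SREBF2, LSS, HMGCS1, DHCR7 and INSIG1 but not in IDI1, against 34.6% of all promoters. The Sp1 box GGGCGG, not marked by capitals, was found in all 6 matched members, IDI1 included, against 45% of all promoters. These matches are letters in a window and say nothing of binding in these cells.

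Values are TPM, a share of transcripts adjusted for gene length, which were rescaled between libraries by the median ratio over genes and compared on the log2(rescaled TPM + 1) scale. Since TPM holds no read numbers, depth is unknown and counting errors cannot be stated. The libraries were uneven, and 12 of 54 listed fewer than 12000 genes above 0. They held members at 0 in up to 8 of 12 libraries for a single gene, and an exact 0 there may be a failed estimate. The results below rest on the 42 other libraries, with none for untreated PEO23. A single library was left for PEA1 untreated and for the 24 h groups of PEO4 and PEO14, 2 libraries were left for the 8 h groups of PEA2, PEO4 and PEO1, and the 11 other groups had 3. A group with 1 library is assumed to vary like the others. Tests are limma over 18013 genes with Benjamini-Hochberg adjusted p-values, and a change is called at an adjusted p under 0.05. Of 8 serous ovarian markers, the epithelial keratins KRT8 and KRT18 had medians of 859 and 1580 rescaled TPM in these libraries and the Müllerian factor PAX8 42.4. The other serous markers were less even. KRT7 and EPCAM had medians of 895 and 172 but went down to 2.58 and 2.05. CDH1 (median 30.7) and WT1 (median 1.87) were each at 0 in 3 libraries, and MUC16 (median 1.77) in 6. Markers of other cell types were not all absent. Among 4 leukocyte genes CD3E was at 0 in 42 of 42 libraries, but CD68, a lysosomal protein of macrophages, was above 0 in all of them (median 20.6, highest 122). Among 4 fibroblast genes DCN was at 0 in 41, whereas the collagen gene COL1A1 was at 0 in 2 (highest 61.2). Of 3 endothelial genes PECAM1 and VWF reached at most 0.443 and 1.23, but the endothelial cadherin CDH5 reached 153, and of 3 hepatocyte genes ALB was at 0 in 39 libraries.

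Per length, FDFT1 was the most abundant member in 21 of 42 libraries and IDI1 in 13, whereas INSIG1 was the lowest in 19. Median levels were 40.4 rescaled TPM for FDFT1, 37.4 for IDI1, 28.2 for SQLE, 18.7 for DHCR7, 15.7 for HMGCS1, 8.92 for LSS, 6.85 for SREBF2 and 5.43 for INSIG1. The ranges of all 8 overlapped.

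SREBF2 fell under carboplatin in all 5 lines with an untreated group to compare, at 8 h and at 24 h. The 29 treated libraries held 2.11 to 9.07 rescaled TPM (median 5.7), against 10.9 to 53.3 (median 15.9) in the 13 untreated libraries, so the groups did not overlap. How many other genes separated the libraries in this way was not counted. In PEO1, SREBF2 was at 33.6, 53.3 and 27.5 rescaled TPM untreated, at 6.66 and 2.87 at 8 h and at 8.97, 7.11 and 8.06 at 24 h. The lowest untreated PEO1 library stood above every treated one.

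In PEO4, SREBF2 was at 15.6, 13.1 and 10.9 rescaled TPM untreated, at 2.47 and 3.26 at 8 h and at 2.95 at 24 h. In PEO14 it was at 23.8, 21.3 and 20.3 untreated, at 4.64, 4.27 and 5.76 at 8 h and at 2.11 at 24 h. Every treated library of these lines stood below every untreated one. The PEA lines had the same order. PEA2 was at 14.3, 14.7 and 12.7 untreated, at 7.03 and 5.91 at 8 h and at 7.81, 6.53 and 7.12 at 24 h. PEA1 was at 15.9 in its 1 untreated library, at 4.55, 5.7 and 5.53 at 8 h and at 5.42, 4.26 and 5.11 at 24 h.

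**Figure D1:**
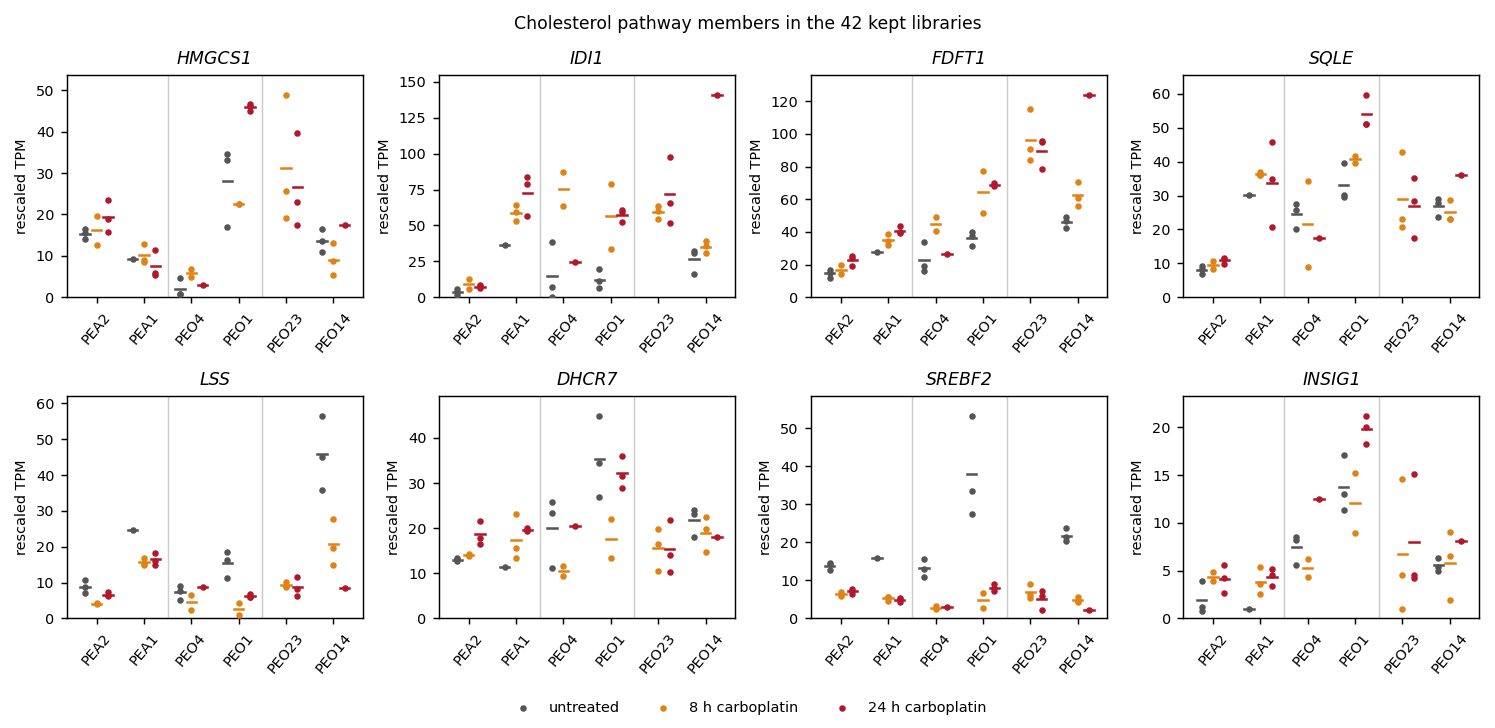
Rescaled TPM (vertical axis, from 0) of the 8 members in the 42 libraries, by cell line, with grey points for untreated cells, orange for 8 h and red for 24 h in carboplatin, and short bars for group means. SREBF2 is lower in every treated library (at most 9.07) than in any untreated library (at least 10.9), and HMGCS1 is at most 6.72 in PEO4 and at least 16.9 in PEO1.

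The log2 change of SREBF2 at 8 h was -2.79 ± 0.33 in PEO1 (SE, limma, adjusted p = 2.02e-07), -1.96 ± 0.29 in PEO14 (adjusted p = 6.89e-06), -1.87 ± 0.33 in PEO4 (adjusted p = 1.79e-05), -1.44 ± 0.41 in PEA1 (adjusted p = 0.0335) and -1.0 ± 0.33 in PEA2 (adjusted p = 0.0373). At 24 h the log2 change was -2.87 ± 0.41 in PEO14, -2.06 ± 0.29 in PEO1, -1.84 ± 0.41 in PEO4, -1.52 ± 0.41 in PEA1 and -0.87 ± 0.29 in PEA2, with adjusted p-values up to 0.0373 in limma. SREBF2 was thus called lower in 10 of 10 comparisons and was the only member called in every one. In these comparisons 5.23% to 32% of all tested genes were called lower, and the share called lower in all 10 was not counted. The 8 h and 24 h comparisons of a line also share its untreated libraries. Without rescaling the changes of SREBF2 were -4.10 to -1.32, but the calls of PEA1 and PEA2 at 8 h were lost. The 4 calls of the PEA lines were also lost whenever a replicate was left out, with adjusted p-values of 0.0561 to 0.393 in limma, and PEA1 without replicate 1 had no untreated library. With all 54 libraries 2 of 12 comparisons were called lower (PEO1 at 8 h, where 3.8% of genes were called lower, and PEO14 at 24 h, where 14.7% were). In that fit PEO23 ran the other way, by 1.42 ± 0.78 at 8 h and 0.99 ± 0.78 at 24 h without a call, with untreated libraries at 26.7, 0 and 0 rescaled TPM.

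Other features of the libraries moved with treatment in the same way. Ribosomal protein genes took 14.76% to 24.96% of TPM (median 19.79%) in treated libraries, against 7.562% to 14.58% (median 12.2%) in untreated libraries, without overlap. Treated libraries listed 4 to 17 olfactory receptor genes above 0, against 19 to 44 in untreated libraries. The RNA genes RMRP and RPPH1 took 7.911% to 45.61% of TPM in treated libraries, against 7.14% to 19.53% in untreated ones, with overlap. Treated cultures had later passages than any untreated culture of the line in 4 of 6 lines, so treatment and passage cannot be told apart there. The part of these features in the SREBF2 result was not tested. An antisense gene, SREBF2-AS1, overlaps SREBF2, and since the strand setting of the counting is not given in the sources used here, reads from the pair cannot be told apart.

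**Figure D2:**
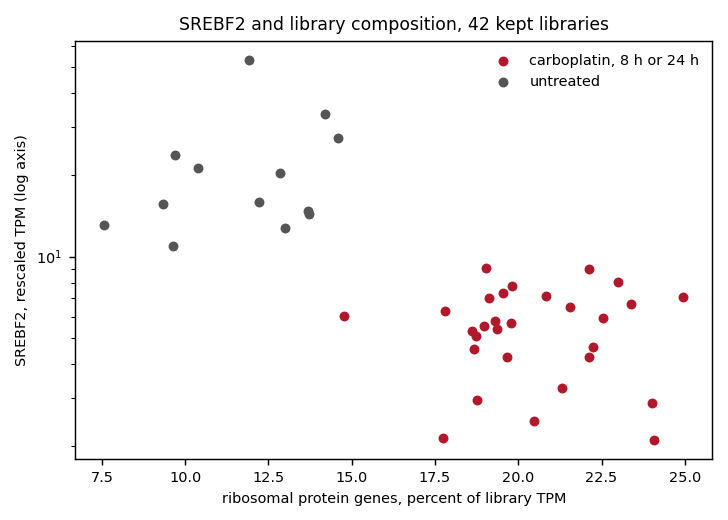
SREBF2 in rescaled TPM (vertical log axis) against the percent of library TPM in ribosomal protein genes, with red points for the 29 treated and grey points for the 13 untreated libraries. The clouds separate on both axes: SREBF2 at 9.07 or less and ribosomal protein genes at 14.76% or more in treated libraries, against SREBF2 at 10.9 or more and ribosomal protein genes at 14.58% or less in untreated ones.

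LSS, the lanosterol synthase that closes squalene epoxide into the first sterol ring system, fell in 4 of 10 comparisons, in PEO1 and PEO14 at both times, and without rescaling was also called lower at 8 h in PEO4 (-1.96) and PEA2 (-1.32). In PEO14 it was at 56.5, 44.9 and 35.9 rescaled TPM untreated, at 19.7, 14.8 and 27.6 at 8 h and at 8.57 at 24 h. In PEO1 it was at 16.4, 18.4 and 11.4 untreated, at 4.17 and 0.881 at 8 h and at 5.97, 5.84 and 6.85 at 24 h. No treated library of either line reached an untreated one. The log2 change of LSS was -2.37 ± 0.35 (limma, adjusted p = 4.11e-06) at 8 h and -1.16 ± 0.31 (adjusted p = 0.00366) at 24 h in PEO1, and -1.13 ± 0.31 (adjusted p = 0.0062) and -2.27 ± 0.44 (adjusted p = 0.000203) in PEO14. DHCR7, which carries out the last reduction to cholesterol, fell at 8 h, with log2 changes of -0.97 ± 0.32 in PEO1 (limma, adjusted p = 0.0155) and -0.80 ± 0.32 in PEO4 (adjusted p = 0.0357). At 24 h its changes in those lines were -0.11 ± 0.29 and 0.11 ± 0.41, without a call.

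IDI1, the isopentenyl diphosphate isomerase of the isoprenoid steps, was called higher in 4 of 10 comparisons. In PEO1 it was at 6.45, 11.1 and 19.4 rescaled TPM untreated, at 33.9 and 78.8 at 8 h and at 59.2, 61.0 and 52.3 at 24 h. In PEO4 it was at 7.13, 0 and 38.4 untreated, at 63.8 and 87.3 at 8 h and at 24.7 at 24 h. In both lines the 8 h libraries stood above all untreated ones, but the untreated PEO4 libraries spread widely. The log2 change of IDI1 was 2.10 ± 0.74 (limma, adjusted p = 0.0226) at 8 h and 2.25 ± 0.66 (adjusted p = 0.00797) at 24 h in PEO1, 3.47 ± 0.74 (adjusted p = 0.000233) at 8 h in PEO4, and 2.43 ± 0.94 (adjusted p = 0.0425) at 24 h in PEO14, where the 1 library was at 141. The antisense gene IDI2-AS1 overlaps IDI1, and in PEO4 it was at 124 and 571 rescaled TPM at 8 h, against 22.8, 14.6 and 153 untreated. The third untreated library was the highest of its group for both genes, and reads of the pair cannot be told apart.

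FDFT1, the squalene synthase that commits the pathway to sterols, was called higher by 0.79 ± 0.24 (limma, adjusted p = 0.00866) at 8 h and 0.91 ± 0.21 (adjusted p = 0.00126) at 24 h in PEO1, by 1.00 ± 0.24 (adjusted p = 0.000795) at 8 h in PEO4 and by 1.41 ± 0.30 (adjusted p = 0.000614) at 24 h in PEO14. In PEO1 its levels were 31.3, 37.8 and 40.2 rescaled TPM untreated, 51.9 and 77.4 at 8 h and 68.7, 68.0 and 70.2 at 24 h. In PEO4 they were 16.4, 18.9 and 33.6 untreated, 40.7 and 49.3 at 8 h and 26.3 at 24 h. These rises are relative to the other genes: without rescaling the 8 h changes of FDFT1 turned to -0.91 ± 0.40 in PEO1 and -0.60 ± 0.40 in PEO4, where the median of all genes was -1.14 and -1.12, against -0.153 and -0.234 with rescaling. Of the 9 calls higher over FDFT1, IDI1 and HMGCS1, IDI1 in PEO4 at 8 h was the call that held without rescaling. In replicate 2 of the 8 h groups, the RNA genes RMRP and RPPH1 took 41.2% of TPM in PEO1 and 38.16% in PEO4. Values there were divided by scale factors of 0.261 and 0.2639, against 0.8076 and 0.6506 in replicate 1, the other library of each group. The part of these shares in the rises was not tested.

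HMGCS1, the synthase that makes HMG-CoA, was called higher at 8 h in PEO4, by 1.36 ± 0.44 (limma, adjusted p = 0.0103). It was at 6.72 and 4.81 rescaled TPM at 8 h against 0.78, 0.756 and 4.67 untreated, so the highest untreated library was close to the lower 8 h one. Without rescaling the change was 0.18 ± 0.66 (limma, adjusted p = 0.885), without a call. SQLE, the squalene epoxidase, and INSIG1 passed the test in 0 of 10 comparisons each. INSIG1 had log2 differences of -0.42 to 1.42 and its lowest adjusted p in limma was 0.242. This too depends on the scaling: without rescaling INSIG1 was called lower at 8 h in PEO1, by -1.78 (limma, adjusted p = 0.0358), and in PEO4, by -1.68 (adjusted p = 0.0431), SQLE in PEO4, by -1.90 (adjusted p = 0.00794), and HMGCS1 in PEO1, by -1.88 (adjusted p = 0.018).

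**Figure D3:**
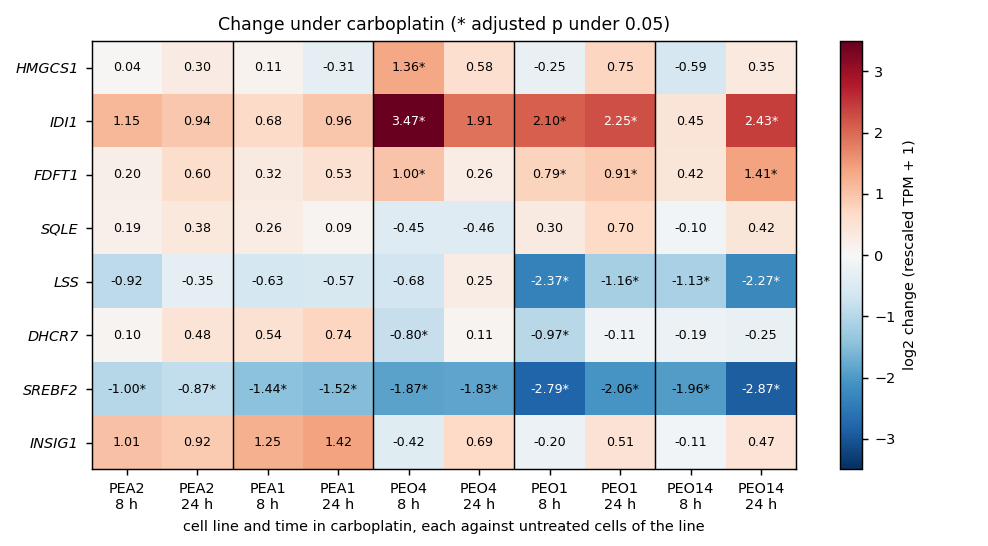
Log2 change of each member (rows) under carboplatin against untreated cells of the same line, at 8 h and 24 h in 5 lines (columns), coloured from blue (lower) to red (higher), with an asterisk at an adjusted p under 0.05. The SREBF2 row is blue and starred in all 10 columns, from -2.87 to -0.87, whereas SQLE and INSIG1 have no star.

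Counted over the members, 5 rose and 9 fell at 8 h among 40 tests of a member in a line, and 4 rose and 7 fell at 24 h. Without rescaling the balance was 1 higher and 13 lower at 8 h, and 0 and 7 at 24 h. With rescaling, at 8 h PEO4 had 3 members higher and 2 lower, where 21.6% and 32% of all tested genes were called in those directions. PEO1 had 2 higher and 3 lower (17.5% and 24.5% of genes), PEO14 0 and 2 (8.92% and 21.2%), PEA2 0 and 1 (3.54% and 10.8%) and PEA1 0 and 1 (0.6% and 5.3%). At 24 h PEO4 had 0 higher and 1 lower (7.26% and 12.7% of genes), PEO1 2 and 2 (15.7% and 22.9%), PEO14 2 and 2 (13.5% and 22.7%), PEA2 0 and 1 (4.77% and 12.5%) and PEA1 0 and 1 (0.788% and 5.23%). Most of these shares are near those of all genes, so the counts do not set the members apart. Between 24 h and 8 h no member was called in 48 limma tests, with 10 at an unadjusted p under 0.05 and a lowest adjusted p of 0.0751. The shares of all genes called there were 7.66% higher and 6.42% lower in PEO4, 0.538% and 2% in PEO14, 0.0777% and 0.316% in PEO23, 0.0944% and 0.122% in PEO1, 0.0222% and 0.00555% in PEA1, and 0% in both directions in PEA2. The change under carboplatin was also compared between the lines of a pair, and no member was called in the 16 limma tests at 8 h (2 at an unadjusted p under 0.05, lowest adjusted p 0.06) or the 16 at 24 h (2, lowest adjusted p 0.229). Over all genes, 0.749% and 1.63% were called higher and lower at 8 h for PEO4 minus PEO1 and 0.167% and 0.172% for PEA2 minus PEA1. At 24 h the shares were 0.538% and 0.844%, and 0.167% and 0.217%.

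The other cholesterol synthesis enzymes, a list of 17 chosen by function, had 21 calls higher and 3 lower in 85 tests at 8 h, and 21 and 1 in 85 at 24 h. At 8 h 11 rose and 2 fell in PEO4, where 21.6% of all tested genes were called higher and 32% lower, 7 and 1 in PEO1 (17.5% and 24.5%), 3 and 0 in PEO14 (8.92% and 21.2%), and 0 and 0 in PEA2 (3.54% and 10.8%) and in PEA1 (0.6% and 5.3%). Their median log2 change was 1.5 in PEO4 and 0.839 in PEO1. At 24 h 9 rose and 1 fell in PEO1 (15.7% and 22.9% of all genes), 6 and 0 in PEO14 (13.5% and 22.7%), 3 and 0 in PEO4 (7.26% and 12.7%), 2 and 0 in PEA2 (4.77% and 12.5%) and 1 and 0 in PEA1 (0.788% and 5.23%). The direction depends on the scaling: without rescaling 0 rose and 8 fell at 8 h in PEO1, and 2 rose and 5 fell in PEO4. At 24 h 2 rose and 1 fell without rescaling in PEO1, and 0 and 0 in PEA2. The median log2 change of the list at 24 h without rescaling was -0.349 in PEO14, 0.0748 in PEO4 and 0.209 in PEA1. Each of these 24 h changes has a group with 1 library. HSD17B7, a sterol ketone reductase, and ACAT2, the thiolase that makes acetoacetyl-CoA, had the largest changes of the list at 8 h, 4.07 ± 0.56 (limma, adjusted p = 5.81e-07) and 3.58 ± 0.65 (adjusted p = 2.99e-05) in PEO4. Of 12 uptake and transport genes, 3 rose and 3 fell at 8 h in PEO4 (21.6% and 32% of all genes), led by NPC2, a lysosomal cholesterol carrier, at 4.74 ± 0.75 (limma, adjusted p = 5.08e-06). The 7 genes of SREBP processing had 4 calls higher and 7 lower in 35 tests at 8 h, and 2 and 6 in 35 at 24 h. Over these 10 comparisons, 0.6% to 21.6% of all genes were called higher and 5.23% to 32% lower. Within the list, SREBF1, which encodes SREBP-1, fell in 7 of 10 comparisons and rose in none, and SCAP, the sterol-sensing escort of SREBPs, fell in 5 and rose in none. SCAP was singled out after its values were seen. The calls of this list depended on the settings. With all 54 libraries the list had 2 calls higher and 2 lower in 42 tests at 8 h, and the same at 24 h. Without rescaling none of its genes was called higher at 8 h or 24 h. In that setting 5 fell at 8 h in PEO1, 2 in PEO4, 2 in PEO14, 1 in PEA2 and 0 in PEA1.

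Resistant lines were compared with their sensitive partners at each time. PEA2 had less IDI1, FDFT1, SQLE and LSS than PEA1 untreated, at 8 h and at 24 h. SQLE, the flavoenzyme that oxidises squalene, was at 8.23, 6.97 and 9.32 rescaled TPM in untreated PEA2, against 30.2 in the 1 untreated PEA1 library, and at 8.23 and 10.7 in PEA2 at 8 h, against 36.1, 36.8 and 36.2 in PEA1. IDI1 was at 7.89, 6.21 and 8.45 in PEA2 at 24 h, against 78.8, 83.7 and 56.3 in PEA1. The libraries of these lines did not overlap.

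The log2 difference of PEA2 from PEA1 at 8 h was -1.85 ± 0.36 (limma, adjusted p = 0.000333) for SQLE, -1.70 ± 0.35 (adjusted p = 0.000541) for LSS, -1.02 ± 0.24 (adjusted p = 0.00235) for FDFT1 and -2.61 ± 0.74 (adjusted p = 0.0128) for IDI1. At 24 h HMGCS1 was higher in PEA2, by 1.30 ± 0.40 (limma, adjusted p = 0.0177). The counts were 0 higher and 4 lower untreated, where 6.32% and 5.25% of all tested genes were called, 0 and 4 at 8 h (8.98% and 7.18%) and 1 and 4 at 24 h (10.2% and 8.55%). PEA2 was at passages 23 to 27 and PEA1 at far higher ones, so passage and resistance cannot be told apart. Markers of other cell types also differed between the lines. The 3 endothelial markers summed to a median of 128 (highest 153) rescaled TPM in PEA2 libraries, against 0 to 0.271 in PEA1 libraries, without overlap. PECAM1 and VWF reached at most 0.443 and 1.23 in any library, so the sum in PEA2 was nearly all CDH5. The 4 fibroblast markers summed to 0.837 to 3.44 in PEA2, against 4.08 to 24.7 in PEA1. The part of these markers in the differences between the lines was not tested. With the replicate block, the untreated differences of FDFT1 (limma, adjusted p = 0.0583) and LSS (adjusted p = 0.0552) were no longer called. With all 54 libraries the untreated differences of FDFT1 and LSS turned to 1.45 and 0.0349, and no member was called between PEA2 and PEA1 untreated, at 8 h or at 24 h. Without rescaling, the untreated calls of FDFT1, LSS and SQLE and the 8 h call of FDFT1 were lost. The 24 h calls of FDFT1, SQLE and HMGCS1 were lost as well, so IDI1 alone was called at every time. The directions were kept.

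PEO4 had far less HMGCS1 than PEO1 at every time. HMGCS1 was at 0.78, 0.756 and 4.67 rescaled TPM in untreated PEO4, against 34.6, 16.9 and 33.1 in untreated PEO1. At 8 h it was at 6.72 and 4.81 in PEO4, against 22.5 and 22.5 in PEO1, and at 24 h at 2.88 in PEO4, against 46.6, 46.2 and 45.0 in PEO1. No PEO4 library reached a PEO1 library. The log2 difference was -3.42 ± 0.40 (limma, adjusted p = 7.37e-08) untreated, -1.81 ± 0.48 (adjusted p = 0.0131) at 8 h and -3.59 ± 0.56 (adjusted p = 2.82e-05) at 24 h. With all 54 libraries it was -3.53 (adjusted p = 0.0604) untreated and -1.2 (adjusted p = 0.938) at 8 h, without a call, and without rescaling the 8 h difference was -1.72 (adjusted p = 0.356).

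SREBF2 was also lower in PEO4 than in PEO1, by 1.42 ± 0.29 (limma, adjusted p = 0.000426) untreated and 1.19 ± 0.41 (adjusted p = 0.0377) at 24 h, and untreated PEO4 had less LSS, DHCR7 and FDFT1, with differences of -0.99, -0.84 and -0.70. At 24 h FDFT1 and SQLE were lower in the 1 PEO4 library as well. Without rescaling the untreated calls of DHCR7 and FDFT1 and the 24 h calls of SREBF2 and SQLE were lost, and in the fit to all 54 libraries those of SREBF2, LSS, DHCR7 and FDFT1 untreated and of SREBF2 and SQLE at 24 h. The counts were 0 higher and 5 lower untreated (15.4% and 13% of all tested genes), 0 and 1 at 8 h (4.66% and 5.23%) and 0 and 4 at 24 h (11.9% and 9.68%).

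PEO23 had more HMGCS1 than PEO14 at 8 h, a call that depended on the scaling and on the libraries used. HMGCS1 had 25.6, 48.9 and 19.1 rescaled TPM in PEO23 libraries, against PEO14 values of 13.2, 8.82 and 5.33, a log2 difference of 1.64 ± 0.40 (limma, adjusted p = 0.00427), and the libraries did not overlap. LSS had 8.84, 10.1 and 9.06 in PEO23 libraries, against PEO14 values of 19.7, 14.8 and 27.6, a difference of -1.03 ± 0.31 (adjusted p = 0.0221). These were the 1 higher and 1 lower call at 8 h (6.83% and 8.01% of all tested genes), and at 24 h no member was called (2.49% and 2.68%), with 1 PEO14 library. Without rescaling the HMGCS1 difference at 8 h was 0.81 ± 0.59 (limma, adjusted p = 0.394), without a call, whereas LSS was at -1.79 (adjusted p = 0.00272). Neither was called at 8 h in the fit to all 54 libraries, with HMGCS1 at 1.77 ± 1.13 and LSS at -0.89 ± 0.99. The 4 fibroblast markers summed to 0.429 to 5.74 rescaled TPM in PEO23 libraries, against 6.3 to 66.7 in PEO14 libraries, and their part was not tested. At 8 h and at 24 h, no member was called higher, or lower, in each of the 3 pairs.

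The differences themselves were set against each other between pairs, in a test added after the data were seen. Untreated, the PEA2 minus PEA1 difference was above the PEO4 minus PEO1 difference for 1 member, HMGCS1, and below it for 0 (9.81% and 10.3% of all tested genes). At 8 h it was above for 1 and below for 1, LSS (8.82% and 6.84%), and at 24 h above for 2, HMGCS1 and SREBF2, and below for 1, LSS (12.7% and 13.2%). The PEO23 minus PEO14 difference was above the PEO4 minus PEO1 difference for 2, FDFT1 and HMGCS1, and below it for 1, LSS, at 8 h (4.72% and 5.03%), and above for 2, HMGCS1 and SREBF2, and below for 0 at 24 h (3.25% and 3.85%). The PEA2 minus PEA1 difference was below the PEO23 minus PEO14 difference for 3, FDFT1, IDI1 and SQLE, and above for 0 at 8 h (5.46% and 8.39%), and neither at 24 h (5.09% and 5.97%). In the fit to all 54 libraries none of these 8 h differences was called in 24 limma tests (2 at an unadjusted p under 0.05, lowest adjusted p 0.162), and without rescaling none of the 8 h calls held. The HMGCS1 calls untreated and at 24 h held under both settings.

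**Figure D4:**
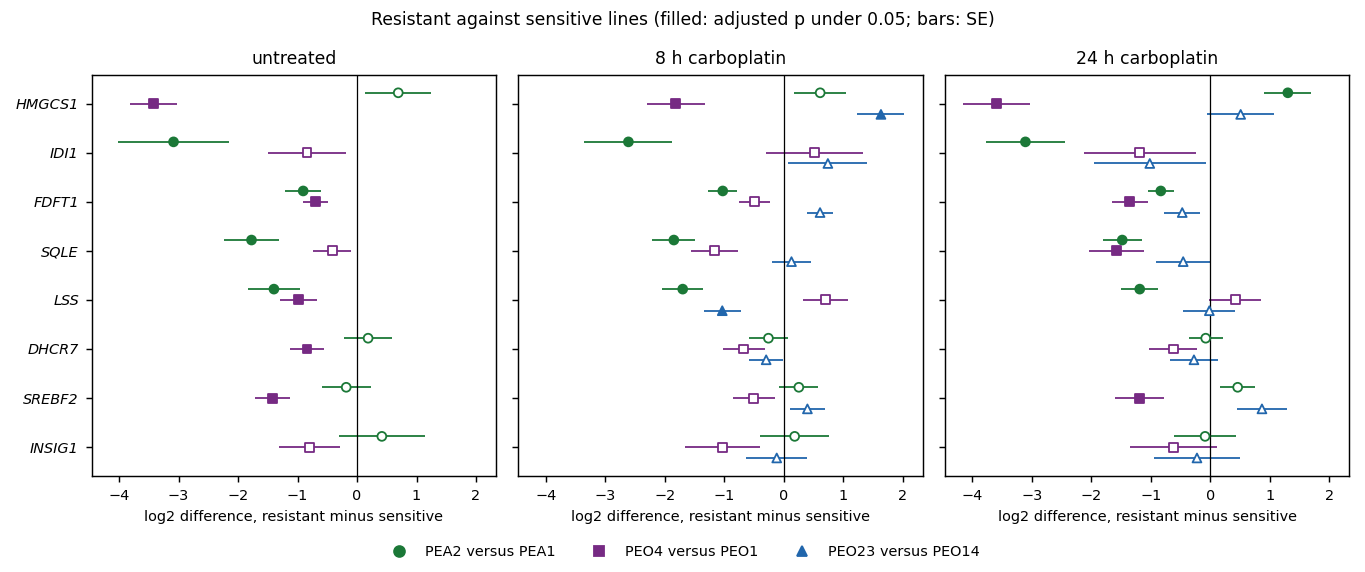
Log2 difference of resistant minus sensitive lines for each member, untreated, at 8 h and at 24 h, with SE bars, filled symbols at an adjusted p under 0.05 and colours for the pairs. HMGCS1 lies at -3.42 in untreated PEO4 against PEO1, whereas at 8 h PEO23 against PEO14 lies at 1.64. SQLE, IDI1, FDFT1 and LSS are lower in PEA2 than PEA1 in every panel.

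The members did not vary as a single block. With the mean of each line taken off, SREBF2 and LSS correlated at 0.847 over the 42 libraries and at 0.735 over the 29 treated ones, and IDI1 and FDFT1 at 0.786 and 0.771. SREBF2 correlated with IDI1 at -0.702 and with FDFT1 at -0.765 over the 42, and the FDFT1 coefficient was -0.339 over the treated libraries. The median over 28 pairs of members was 0.127. These are descriptions over libraries that share lines, scaling and treatment. The named genes whose pattern was most like the mean of the members were PCNXL4 at 0.66, ATP11B at 0.648, SLFN5 at 0.633, SPTLC2 at 0.625 and RB1CC1 at 0.618, after a gene at 0.685 whose symbol had been turned into a date. Over the 17961 tested genes outside the pathway lists the coefficient ran from -0.69 to 0.685. Against the mean of the other members, SREBF2 was at -0.218, LSS at -0.163, FDFT1 at -0.0622 and IDI1 at -0.0534. DHCR7 was at 0.193, SQLE at 0.302, INSIG1 at 0.486 and HMGCS1 at 0.493.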

How the data were processed

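RNA from 6 cell lines was made into libraries from 200 ng with a stranded total RNA kit and sequenced as pairs of 75 bases, per the labels' protocols. The authors deposited TPM per gene in 1 table, whose name points to RSEM. Conversion used bcl2fastq 2.18 and the build was hg19, per the submitters' processing notes. For aligner, annotation and strand setting: not given in the sources used here. The treatment protocol gives 80 µM, the series text the same figure in mM. Untreated samples are labelled time 0, whereas the series text describes vehicle controls harvested at 24 h.

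Libraries with at least 12000 genes above 0 were kept (42 of 54). TPM was rescaled by median ratios over 8287 genes, a gene had to reach a TPM of 1 in 3 or more libraries to be tested (18013 did), and limma 3.58.1 in R 4.3.3 with a mean-variance trend was fitted once to log2(rescaled TPM + 1) of all groups, which understates changes of low genes. P-values were adjusted by Benjamini-Hochberg within each comparison. Only the limma step was tested on simulated data, normal values drawn after rescaling with known changes added. That simulation does not cover the rescaling or the unevenness of the libraries. Outside the members, at most the 3 called pathway genes with the largest change per comparison family were eligible to be named, and the 6 genes nearest in pattern. The members and lists were chosen with earlier results of these data known. The 8 h and 24 h cultures with the same line and number had the same passage label in all 18 cases, which pairs them by label. The label was a range for PEO14 replicate 2 (23 to 25), PEO23 replicate 2 (20 to 22) and PEO1 replicate 3 (13 to 14). Deviations of 10 such pairs correlated at -0.247 to 0.411. Alternatives were all libraries, no rescaling, a pseudocount of 0.1, no filter, no trend, compared groups only, a replicate block and leaving out each replicate. Replicates were repeated on 3 days per the series text.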

Additional observations from a re-analysis of the deposited data

Results flagged for a closer look

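The resistant minus sensitive difference of several members was not the same in the 3 pairs of lines. This was tested as a difference between pairs in the same limma fit, a test added after the data were seen, and the values below are log2 differences of differences with adjusted p-values under 0.05 over all tested genes.

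HMGCS1 differed most. Its difference in PEA2 against PEA1 was above that in PEO4 against PEO1 by 4.11 ± 0.69 (SE) untreated, 2.43 ± 0.66 at 8 h and 4.9 ± 0.69 at 24 h, and its difference in PEO23 against PEO14 was above that in PEO4 against PEO1 by 3.45 ± 0.63 at 8 h and 4.11 ± 0.79 at 24 h. LSS ran the other way: against the PEO4 and PEO1 pair it differed by -2.4 ± 0.51 at 8 h and -1.6 ± 0.54 at 24 h for PEA2 and PEA1, and by -1.73 ± 0.49 at 8 h for PEO23 and PEO14. At 8 h FDFT1 differed by 1.1 ± 0.34 between the PEO23 and PEO4 pairs and by -1.64 ± 0.32 between the PEA2 and PEO23 pairs. IDI1 and SQLE differed by -3.35 ± 0.99 and -1.98 ± 0.49 between the PEA2 and PEO23 pairs at 8 h. At 24 h the SREBF2 difference was above that of the PEO4 pair by 1.65 ± 0.51 in the PEA2 pair and by 2.06 ± 0.58 in the PEO23 pair. In the fit to all 54 libraries none of the 8 h differences was called (lowest adjusted p 0.162 in limma), and none of them held without rescaling. The HMGCS1 differences untreated and at 24 h were called under both settings, whereas at 24 h that of LSS was called under neither, and of SREBF2 only the PEO23 pair with all libraries. The 24 h values rest on 1 library each of PEO4 and PEO14, and the untreated value on 1 of PEA1.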

How the results depend on the processing

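Counts are of members called over the lines or pairs. With all 54 libraries, in the same comparisons, 0 rose and 1 fell at 8 h against untreated cells, 0 rose and 2 fell at 24 h, 0 were lower in resistant lines untreated, 0 higher and 0 lower at 8 h, and 0 higher and 3 lower at 24 h. The untreated differences of PEA2 from PEA1 turned to 1.45 for FDFT1 and 0.0349 for LSS. Without rescaling 1 rose and 13 fell at 8 h, 0 rose and 7 fell at 24 h, 4 were lower in resistant lines untreated, 0 higher at 8 h, and 0 higher and 4 lower at 24 h, and FDFT1 at 8 h turned to -0.908 in PEO1 and -0.595 in PEO4. Without the filter 2 were higher in resistant lines at 8 h. With the compared groups only, 1 rose and 4 fell at 8 h, and 1 was lower in resistant lines untreated. The cause of these shifts was not tested.

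Leaving out each replicate in turn gave 1 to 5 higher and 5 to 7 lower at 8 h, 1 to 5 higher and 3 to 5 lower at 24 h, and 0 to 1 higher between 24 h and 8 h. In resistant lines it gave 3 to 5 lower untreated, 0 to 2 higher and 2 to 5 lower at 8 h, and 0 to 1 higher and 3 to 6 lower at 24 h, in part over fewer comparisons. With the replicate block 7 were lower in resistant lines untreated, against 9 without it, the lost calls being FDFT1 and LSS in PEA2 against PEA1, and no other count of calls changed. Of 64 single calls, those between pairs included, 9 held with all libraries, 30 without rescaling, 52 with a pseudocount of 0.1 and 62 with the replicate block. SREBF2 calls in PEA1 and PEA2 were lost under several settings, with the direction kept. The unknown depth and the groups of 1 library limit all results.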
